A study of Mus musculus with 2 samples.

Results

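The 6 genes described here are the 4 subunits of the AMPA receptor, Gria1, Gria2, Gria3 and Gria4, and the cornichons Cnih2 and Cnih3. They were chosen by name and matched by stable Ensembl identifier among the 43309 nuclear mouse genes of the deposited tables. The AMPA receptor is the ion channel that carries most fast excitatory transmission in the brain. It is a tetramer of GluA1 to GluA4, the products of the Gria genes. GluA2, after editing of its transcript at the Q/R site, makes the channel nearly impermeable to calcium. Cornichons bind the receptor, help its export from the endoplasmic reticulum and slow its deactivation, as do the TARPs (transmembrane AMPA receptor regulatory proteins).

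RNA came from the hindbrain of newborn B6NCrl mice at postnatal day 0, with 1 untreated animal per library. The 2 libraries, pup 1 (replicate 1) and pup 3 (replicate 2), form the single group P0 hindbrain, so the comparison open to the data is between the pups. The input of a library was 13 pg of RNA above 200 nt in size, 1 cell-equivalent in the terms of the labels. It held RNA of mixed cells of the tissue, and fewer cells of a type cannot be told apart from less RNA per cell. Both pups carry the same donor record, their sex was not collected. With 1 library per pup, no test was possible, and the spread between libraries joins animal, dilution and amplification.

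The library of pup 1 held 35462381 expected counts and that of pup 3 held 29866728. Levels are given as TPM, the share of a gene among the transcripts of nuclear genes after correction for length, scaled to a sum of 1000000. Detection means 5 or more expected counts, the reads that the quantifier credits to a gene. Of 21461 protein-coding genes, 10735 were detected in pup 1 and 9272 in pup 3. The neuron markers Tubb3, Stmn2, Snap25, Elavl3, Gap43 and Syt1 were all detected in both libraries, and summed to 8643 TPM in pup 1 and 6109 in pup 3. The 5 astrocyte and radial glia markers summed to 7830 TPM in pup 1 and 7353 in pup 3. Of 5 markers each, 3 were detected in both libraries for oligodendrocyte precursors, 2 for microglia and 2 for endothelium. Of 6 hindbrain markers, Hoxa2, Hoxb3 and Hoxb5 were detected in both libraries, Pax2 in pup 1, Barhl1 in pup 3 and En2 in neither. Of 6 forebrain markers 5 were detected in neither library, and Eomes had 0 counts in pup 1 and 558 in pup 3.

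Each Gria gene carries a pair of mutually exclusive exons of 115 bases, flop and flip, which encode the end of the ligand-binding domain. The form used sets how fast the receptor desensitises, flip forms desensitising more slowly in most subunits. The exons of Gria1, Gria2 and Gria4, the 3 genes for which both forms received reads, are shown in the sense of the gene, in GENCODE M21 on GRCm38. Capitals mark the bases at which a cassette differs from the other cassette of its gene.
Gria1 flip, chr11:57310608-57310722, plus strand: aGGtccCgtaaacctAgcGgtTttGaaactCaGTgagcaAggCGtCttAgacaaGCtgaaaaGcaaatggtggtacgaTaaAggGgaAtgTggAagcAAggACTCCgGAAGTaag
Gria1 flop, chr11:57309769-57309883, plus strand: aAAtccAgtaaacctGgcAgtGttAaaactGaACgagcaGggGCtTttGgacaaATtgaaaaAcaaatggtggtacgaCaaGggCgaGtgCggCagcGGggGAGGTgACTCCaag
Gria2 flip, chr3:80690404-80690518, minus strand: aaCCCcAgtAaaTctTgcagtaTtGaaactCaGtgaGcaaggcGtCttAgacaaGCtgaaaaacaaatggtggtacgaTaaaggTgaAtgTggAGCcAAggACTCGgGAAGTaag
Gria2 flop, chr3:80691320-80691434, minus strand: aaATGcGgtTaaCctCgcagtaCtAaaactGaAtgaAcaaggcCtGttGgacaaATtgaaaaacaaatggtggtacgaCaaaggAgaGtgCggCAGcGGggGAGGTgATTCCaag
Gria4 flip, chr9:4427030-4427144, minus strand: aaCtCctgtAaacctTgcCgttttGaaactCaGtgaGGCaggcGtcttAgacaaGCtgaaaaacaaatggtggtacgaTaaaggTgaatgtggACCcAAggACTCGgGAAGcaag
Gria4 flop, chr9:4432773-4432887, minus strand: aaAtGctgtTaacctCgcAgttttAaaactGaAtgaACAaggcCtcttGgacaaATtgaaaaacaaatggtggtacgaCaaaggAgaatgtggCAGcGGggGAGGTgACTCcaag
The cassettes of a gene differed at 36 bases in Gria1 and Gria2, 32 in Gria3 and 31 in Gria4. Each cassette of Gria1, Gria3 and Gria4 was closer to its namesake in Gria2 than to the other cassette of its own gene. The flip cassette of Gria4 was 92.2% identical to the flip cassette of Gria2, and 73.0% identical to the flop cassette of Gria4. A read that lies inside the shared stretches does not tell the forms of a gene apart, so the split between them rests on the differing bases and on exons that only some transcripts hold.

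The level of the family was set by Gria2. Gria2 (ENSMUSG00000033981.10, chr3:80681450-80802835, minus strand) had 22002 expected counts in pup 1 and 13712 in pup 3, or 242 TPM in pup 1 and 171 in pup 3. It averaged 206 ± 50.4 TPM (SD, n = 2). Its level lay above 93.8% of the detected protein-coding genes in pup 1 and above 88.1% in pup 3. The other members were all lower in both libraries, the highest of them at 53.7 TPM, so by whole-gene TPM Gria2 did not overlap with any of them. In protein-coding forms alone, Gria2 had 53.9 TPM in pup 3, close to the 53.1 TPM of Gria1 in pup 1.

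Gria1 (ENSMUSG00000020524.12, chr11:57011387-57330244, plus strand) encodes GluA1, the subunit best known from activity-dependent insertion at synapses. It had 53.7 TPM in pup 1 and 26.9 in pup 3, from 5918 and 2375 expected counts, and averaged 40.3 ± 18.9 TPM (SD, n = 2). Gria4 (ENSMUSG00000025892.11, chr9:4417896-4796234, minus strand) encodes GluA4, a subunit of fast receptors in the adult hindbrain and cerebellum. It had 32.0 TPM in pup 1 and 12.0 in pup 3, from 3537 and 914 expected counts, and averaged 22.0 ± 14.1 TPM (SD, n = 2). Gria1 lay above Gria4 within each pup, but the ranges of the 2 genes over the pups overlapped.

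Gria3 (ENSMUSG00000001986.12, chrX:41400854-41678601, plus strand) encodes GluA3, which pairs with GluA2 in many neurons. It had 14 expected counts in pup 1, against 1364 in pup 3. The levels were 0.135 TPM in pup 1 (95% Poisson interval 0.0728 to 0.223) and 18.9 in pup 3 (17.9 to 19.9). Gria3 was thus the lowest of the 6 genes in pup 1 and the third highest in pup 3, above Gria4. By count and length it was 142-fold higher in pup 3 (95% counting interval 84.3 to 260). The mean of 9.52 ± 13.3 TPM (SD, n = 2) describes neither library. Of the 2228 protein-coding genes at 10 to 30 TPM in pup 3, 502 (22.5%) were below 1 TPM in pup 1, as Gria3 was.

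The cornichons were low. Cnih2 (ENSMUSG00000024873.6, chr19:5092868-5098521, minus strand) had 245 expected counts in pup 1 and 41 in pup 3. These gave 10.4 TPM in pup 1 (95% Poisson interval 9.13 to 11.8) and 1.98 in pup 3 (1.42 to 2.68), with a mean of 6.18 ± 5.95 TPM (SD, n = 2). Cnih3 (ENSMUSG00000026514.9, chr1:181352628-181460641, plus strand) had 23 expected counts in pup 1 and 0 in pup 3. Its level was 0.429 TPM in pup 1 (0.274 to 0.648) and 0 in pup 3 (0 to 0.122). With the 0 of pup 3 set to 3 counts, a level of 0.0992 TPM, Cnih3 was 4.33-fold higher in pup 1. That value follows from the setting of 3 counts and is not a lower bound. The intervals cover counting error only, since reads amplified without molecular identifiers are not independent molecules.

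**Figure D1:**
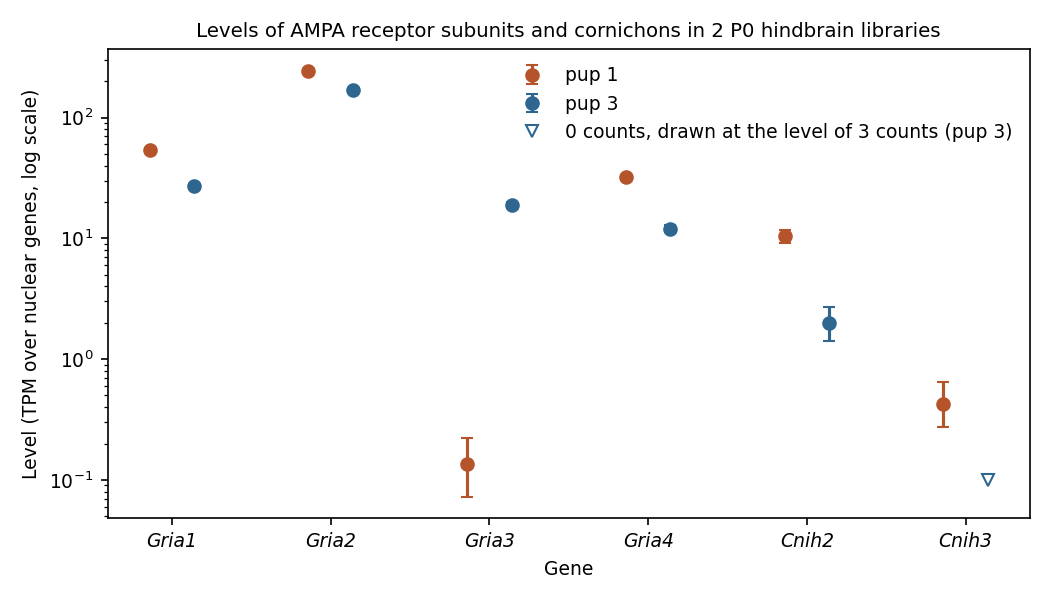
Level of each gene in TPM over nuclear genes on a log scale, with pup 1 to the left of pup 3; bars are 95% Poisson intervals of the counts, and the open triangle is a count of 0 drawn at the level of 3 counts. Gria2 lies highest in both libraries at 242 and 171 TPM, and Gria3 is the one gene that is lower in pup 1, at 0.135 TPM against 18.9 TPM in pup 3.

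Of the 6 genes, 6 were detected in pup 1 and 5 in pup 3, so that 5 were detected in both; the share over all protein-coding genes was 37.8%. Among the 5 detected in both, 4 were higher in pup 1, against 45.7% of protein-coding genes. The plain ratio of pup 1 over pup 3 was 1.42 for Gria2, 2.00 for Gria1, 2.66 for Gria4 and 5.26 for Cnih2. The counting intervals of these ratios did not reach 1, running from 1.39 to 1.45 for Gria2, 1.90 to 2.09 for Gria1, 2.48 to 2.87 for Gria4 and 3.77 to 7.52 for Cnih2. Protein-coding genes detected in both libraries, with at least 50 expected counts in 1, differed by a median of 2.00-fold in either direction. Over all protein-coding genes with at least 50 expected counts in 1 library, detected in both or not, the median was 3.26-fold. Gria2 differed by less than either median, Gria1 by about the first, Gria4 by an amount between them, and Cnih2 and Gria3 by more than both.

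A difference of 4-fold was counted for the 5 members with at least 50 expected counts in 1 library, which leaves out Cnih3. Of these, 2 passed, Cnih2 as higher in pup 1 and Gria3 as higher in pup 3. Among the 11245 protein-coding genes with that count, 46.1% passed in either direction, 27.7% as higher in pup 1 and 18.3% as higher in pup 3. The members' 2 of 5 is close to this background and is no result about them. With a pseudocount of 1 TPM the log2 ratio of Cnih2 was 1.94, just under the 4-fold line, while that of Gria3 was -4.13. The median log2 ratio of all protein-coding genes detected in both libraries was -0.14, so relative to the median gene the log2 ratios were 0.64 for Gria2, 1.11 for Gria1, 1.49 for Gria4, 2.08 for Cnih2 and -3.99 for Gria3.

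**Figure D2:**
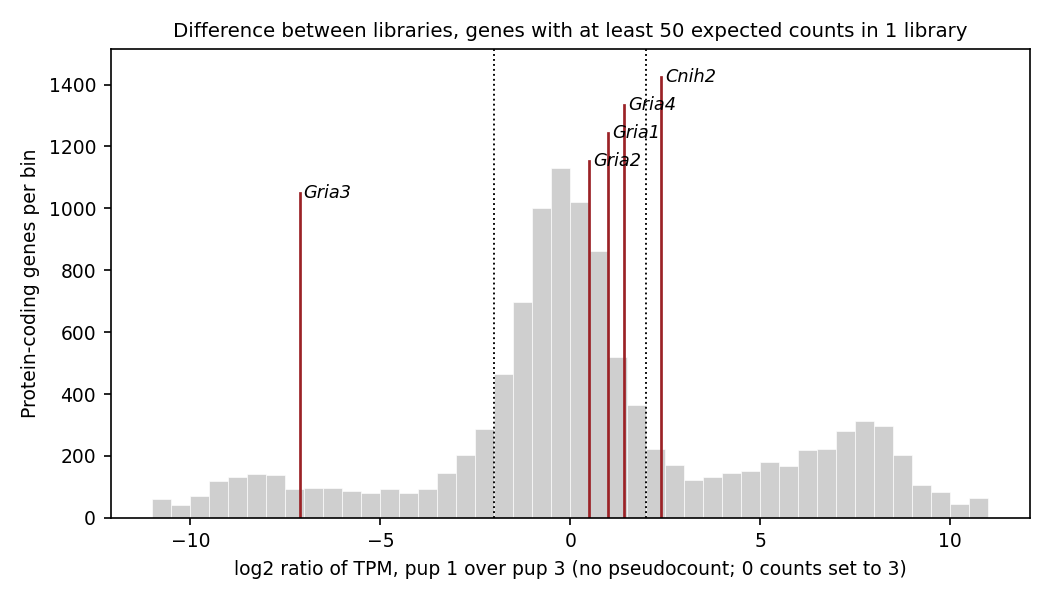
Histogram of the log2 ratio of TPM, pup 1 over pup 3, for 11245 protein-coding genes with at least 50 expected counts in 1 library; red lines mark 5 members, dotted lines the 4-fold limits, and ratios beyond the axis are in the end bins. Gria2, Gria1 and Gria4 lie inside the limits, Cnih2 lies just outside on the side of pup 1, and Gria3 lies far out on the side of pup 3 among the genes nearly missing from pup 1.

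By gene TPM, Gria2 took nearly the same share of the AMPA receptor sum in both pups. The 4 Gria genes summed to 328 TPM in pup 1 and 229 in pup 3, or 278 ± 70.2 TPM (SD, n = 2). The sum of the 6 neuron markers was higher in pup 1 through Tubb3 and Stmn2 alone, with ratios of pup 1 over pup 3 of 1.91 and 1.48. The ratios of the others were below 1, at 0.964 for Snap25, 0.757 for Elavl3, 0.981 for Gap43 and 0.948 for Syt1. The part of neuronal RNA in the difference of the Gria sum was not tested. Gria2 made up 73.8% of the Gria sum in pup 1 and 74.7% in pup 3 (74.2 ± 0.625%, SD, n = 2). Gria1 made up 16.4% in pup 1 and 11.8% in pup 3, and Gria4 made up 9.77% in pup 1 and 5.26% in pup 3. Gria3 made up 0.0413% in pup 1 and 8.28% in pup 3. The close match of the Gria2 shares rested on Gria3, which added almost nothing to the sum of pup 1. Over Gria1, Gria2 and Gria4 alone, Gria2 made up 73.8% in pup 1 and 81.4% in pup 3. By expected counts of the 4 genes it made up 69.9% in pup 1 and 74.7% in pup 3, and over their protein-coding transcripts alone, a measure chosen after seeing the data, 65.6% of the TPM in pup 1 and 52.6% in pup 3. Per transcript, Gria2 stood at 4.50 times Gria1 in pup 1 and 6.34 times in pup 3, and at 7.56 times Gria4 in pup 1 and 14.2 times in pup 3.

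**Figure D3:**
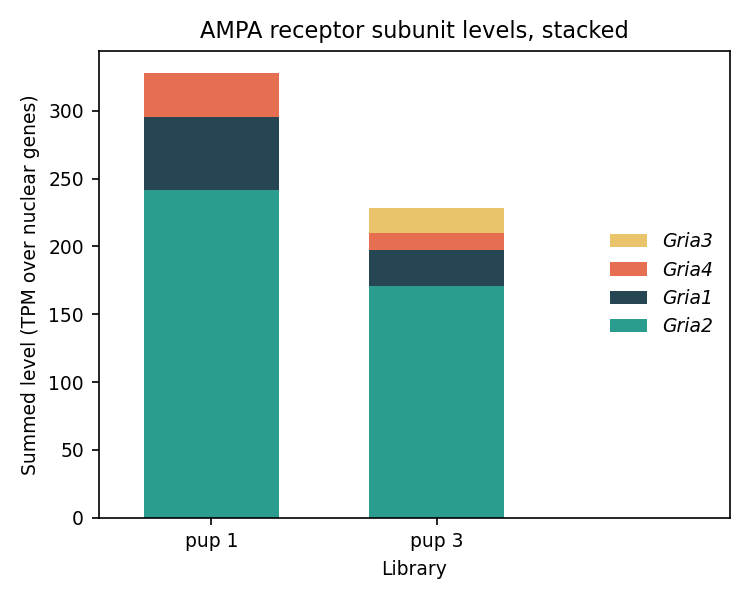
Stacked levels of Gria2, Gria1, Gria4 and Gria3 in TPM over nuclear genes, pup 1 to the left of pup 3. Gria2 fills 73.8% of the column of pup 1 and 74.7% of that of pup 3, and Gria3 is visible in pup 3 alone.

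The transcript tables listed 29 transcripts of the 6 genes, and all 29 matched a GENCODE M21 transcript by stable identifier. Of the 25 Gria transcripts, 5 held flip, 5 held flop, 2 held both cassettes and 13 held neither. Both transcripts with the 2 cassettes, Gria2-203 and Gria3-206, are annotated as subject to nonsense-mediated decay. Over the 4 genes, flip took 70.1% of the TPM of transcripts with a single cassette in pup 1 and 53.1% in pup 3 (61.6 ± 12.0%, SD, n = 2). This value joins genes whose annotated pairs differ in more than the cassette, and the genes are therefore given one by one.

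In Gria1 the flip and flop forms end on nearly the same last exon, of 2798 to 2802 bases. Flip took 57.7% of the cassette-bearing TPM in pup 1 and 62.2% in pup 3. The transcripts behind the flip share were not the same in both pups. Flip is listed in a pair of transcripts, Gria1-201 and Gria1-204, which share 14 identical exons of 16 and differ in the first exon and by a few bases at the end of the last. The first exon of Gria1-201 has 306 bases from chr11:57011810, and that of Gria1-204 has 125 bases from chr11:57013046. The listed flop form, Gria1-202, starts inside the first exon of Gria1-201 and lacks that of Gria1-204. Reads from the first exon of Gria1-204 are therefore credited to flip whatever cassette their molecule carried. The flip share of Gria1 thus joins cassette and first exon, above all in pup 3. Gria1-201 took 51.7% of the gene's TPM in pup 1 and 4.13% in pup 3. Gria1-204 took 5.33% in pup 1 and 52.5% in pup 3. The deposited credibility intervals did not overlap between the pups: for Gria1-201 they ran from 19.7 to 26.8 TPM in pup 1 and from 0.251 to 2.20 TPM in pup 3, and for Gria1-204 from 0.651 to 6.36 TPM in pup 1 and from 8.88 to 14.7 TPM in pup 3. The flop form, Gria1-202, took 41.8% in pup 1 and 34.4% in pup 3. Gria1-203 had 0 expected counts in pup 1 and 8.25 in pup 3, and Gria1-205 had 5.48 in pup 1 and 0 in pup 3.

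Gria4 gave a flip share of 28.4% in pup 1 and an even split in pup 3, from pairs whose last exons have 2421 bases (flip) and 2418 bases (flop). In pup 1 the flip form Gria4-202 had 1003 expected counts with a posterior SD, the deposited error of that estimate, of 122, and the flop form Gria4-201 had 2529 with a posterior SD of 122, so flop led by more than its error. In pup 3 both forms were given 364 expected counts with a posterior SD of 124, a tie that does not tell them apart. The credibility interval in pup 3 ran from 1.03 to 5.37 TPM for flip and from 1.11 to 5.41 TPM for flop. Over Gria1 and Gria4 together, flip took 46.7% in pup 1 and 59.4% in pup 3, so without Gria2 and Gria3 the order of the pups turned round. A further form, Gria4-203, ends on an exon of 590 bases upstream of both cassettes. It took 0.33% of the gene's TPM in pup 1, from 4.86 expected counts, and 37.9% in pup 3, from 186.

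In Gria2 the cassette and the tail cannot be separated. The flop form Gria2-201 is the one listed transcript that holds the long last exon of 7265 bases, and the flip form Gria2-202 ends on a last exon of 920 bases. Reads from the longer tail are therefore credited to flop whatever cassette their molecule carried. On that footing Gria2-202 (flip) had 134 TPM in pup 1 and 31.8 in pup 3, and Gria2-201 (flop) had 28.7 TPM in pup 1 and 22.1 in pup 3. The flip share was 82.3% in pup 1 and 58.9% in pup 3. The form with both cassettes, Gria2-203, had 1127 expected counts in pup 1 and 0 in pup 3.

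Most of the remaining Gria2 signal lay in transcripts that stop before the cassettes. The 5 transcripts annotated as retained introns took 26.6% of Gria2 TPM in pup 1 and 68.4% in pup 3, and protein-coding forms took 67.1% in pup 1 and 31.6% in pup 3. The leading one was Gria2-206, with 36.3 TPM in pup 1 and 97.2 in pup 3. It reads through the end of exon 13 into 764 bases of the next intron and stops 86 bases short of the flop cassette. It took 15.0% of the gene's TPM in pup 1 and 57.0% in pup 3. Gria2-208 took 8.08% in pup 1 and 0% in pup 3. Gria2-204 took 1.5% in pup 1 and 5.75% in pup 3, Gria2-207 took 1.20% in pup 1 and 5.66% in pup 3, and Gria2-205 took 0.77% in pup 1 and 0.06% in pup 3. In its protein-coding forms alone Gria2 had 162 TPM in pup 1 and 53.9 in pup 3, a ratio of 3.01 in place of the 1.42 of the whole gene.

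Gria3 could be read in pup 3 alone, since all 14 counts of pup 1 were assigned to Gria3-206, the form with both cassettes. In pup 3 the flop form Gria3-202 took 51.1% of the gene's TPM from 527 expected counts, and Gria3-206 took 45.2% from 791. The flip form Gria3-201 was given 0 counts with a posterior SD of 19.5. Its last exon has 2262 bases, close to the 2259 bases of Gria3-206, while the last exon of Gria3-202 has 246 bases. Reads from the long tail thus had Gria3-206 and Gria3-201 to go to, and the split between these rests on the cassette region. The other listed flop form, Gria3-209, also ends on an exon of 246 bases. Reads from the long tail of a molecule with flop alone could therefore not be credited to a flop form. The share of Gria3-206 thus joins cassette and tail and does not measure molecules with both cassettes. Gria3-208 had 44.7 expected counts and Gria3-205 had 1.29 in pup 3, and Gria3-203, Gria3-204, Gria3-207 and Gria3-209 had 0 in both pups.

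Cnih2 has a single listed transcript, Cnih2-201, and all 23 counts of Cnih3 in pup 1 were assigned to Cnih3-201. Cnih3-202 and Cnih3-203 had 0 counts in both libraries. Cnih2 overlaps Yif1a, a gene on the opposite strand with 1264 expected counts in pup 1 and 1651 in pup 3, over 14 bases. No source used here says whether the counting used strand, so reads in those bases cannot be assigned to either gene. The miRNA gene Gm25749 lies inside Gria2 and had 3.39 expected counts in pup 1 and 12.4 in pup 3.

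**Figure D4:**
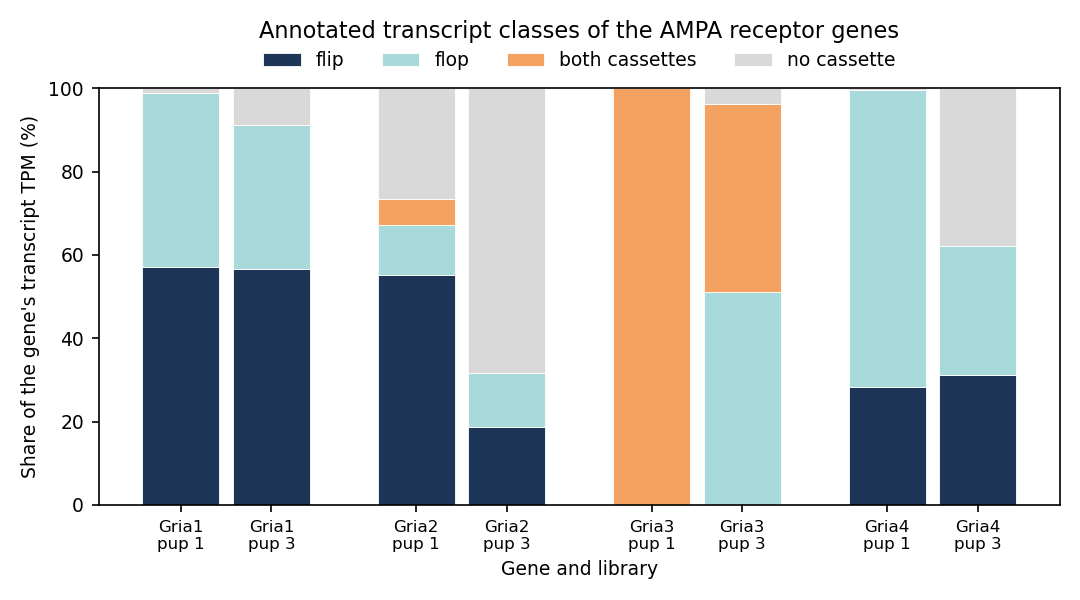
Share of each Gria gene's transcript TPM in forms with flip, flop, both cassettes or no cassette, in percent, with pup 1 to the left of pup 3 for each gene; the Gria3 column of pup 1 rests on 14 counts. In Gria2 forms with no cassette fill 26.6% in pup 1 and 68.4% in pup 3, and in Gria4 0.317% in pup 1 and 37.9% in pup 3. The flip share of Gria1 is nearly level, but lies mostly in Gria1-201 in pup 1 and in Gria1-204 in pup 3, which differ in the first exon.

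The other genes of the AMPA receptor system are given for context. Of the 6 TARPs, 4 were detected in both libraries. By the mean of the pups Cacng3 (TARP gamma-3) was highest, with 23.3 TPM in pup 1 and 95.4 in pup 3. Cacng4 (gamma-4), the highest in pup 1, had 49.4 TPM in pup 1 and 30.5 in pup 3. Cacng2, which encodes stargazin, the TARP that delivers AMPA receptors to the surface of cerebellar granule cells, had 5.26 TPM in pup 1 and 11.6 in pup 3. Cacng8 (gamma-8) had 2.07 TPM in pup 1 and 10.9 in pup 3. Cacng5 had 621 expected counts in pup 1 and 0 in pup 3, and Cacng7 had 186 in pup 1 and 0 in pup 3. The TARPs summed to 92.6 TPM in pup 1 and 148 in pup 3, whereas the Gria genes summed higher in pup 1. The higher TARP sum of pup 3 rested on Cacng3 alone. Without Cacng3 the TARPs also summed higher in pup 1. By the 4-fold rule 2 TARPs were higher in pup 1 (Cacng5 and Cacng7) and 2 in pup 3 (Cacng3 and Cacng8).

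Cnih1 and Cnih4 belong to the same family and act in cargo export from the endoplasmic reticulum in many cell types. Cnih1 had 118 TPM in pup 1 and 256 in pup 3, and Cnih4 had 33.9 TPM in pup 1 and 35.3 in pup 3. Within each library both lay above Cnih2 and Cnih3.

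Of 16 further auxiliary and biogenesis genes 14 were detected in both libraries. The 4 with the highest mean over the pups were Abhd12, with 106 TPM in pup 1 and 257 in pup 3, Sacm1l with 86.1 TPM in pup 1 and 66.3 in pup 3, Porcn with 59.4 TPM in pup 1 and 78.0 in pup 3, and Prrt2 with 104 TPM in pup 1 and 21.6 in pup 3. Their products have been found in AMPA receptor complexes and also act elsewhere in the cell. Shisa7 had 168 expected counts in pup 1 and 0 in pup 3, and Shisa8 had 0 in both. By the 4-fold rule 4 of the 15 with enough counts were higher in pup 1 (Prrt2, Shisa7, Gsg1l and Neto2) and 2 in pup 3 (Shisa9 and Neto1). Neto1 and Neto2 stand in this list, but their products are known as auxiliary subunits of kainate receptors.

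Of 19 trafficking and anchoring genes 16 were detected in both libraries. Napa, which encodes the adaptor alpha-SNAP, had 299 TPM in pup 1 and 370 in pup 3. Nsf, whose product binds GluA2, had 142 TPM in pup 1 and 274 in pup 3. Vps35, a retromer subunit that returns receptors to the membrane, had 162 TPM in pup 1 and 108 in pup 3. Pick1, which encodes a PDZ protein of GluA2 and GluA3, had 65.1 TPM in pup 1 and 65.5 in pup 3. Grip2 had 142 expected counts in pup 1 and 0 in pup 3, Iqsec2 had 194 in pup 1 and 0 in pup 3, and the activity-regulated gene Arc had 0 in both. By the 4-fold rule 3 of 18 were higher in pup 1 (Grip1, Grip2 and Iqsec2) and 0 in pup 3.

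Of 11 genes listed for secreted and adhesion proteins that cluster AMPA receptors, 7 were detected in both libraries. The products of C1ql2 and C1ql3, also in this list, are better known from kainate receptors. The olfactomedins led, Olfm1 with 157 TPM in pup 1 and 135 in pup 3, Olfm2 with 127 TPM in pup 1 and 120 in pup 3, and Olfm3 with 57.2 TPM in pup 1 and 51.9 in pup 3. The synaptic adhesion gene Lrrtm1 had 27.2 TPM in pup 1 and 33.3 in pup 3. All 4 of these differed by less than 1.5-fold between the pups. Lrrtm2 had 2050 expected counts in pup 1 and 0 in pup 3, C1ql3 had 406 in pup 1 and 0 in pup 3, Nptx2 had 115 in pup 1 and 1 in pup 3, and C1ql2 had 0 in both. By the 4-fold rule 4 of 10 were higher in pup 1 (Lrrtm2, C1ql3, Nptx2 and the neuronal pentraxin receptor Nptxr, with 43.8 TPM in pup 1 and 0.681 in pup 3) and 0 in pup 3. These counts stand beside the background of 27.7% for pup 1 and 18.3% for pup 3 and are descriptions of small lists.

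**Figure D5:**
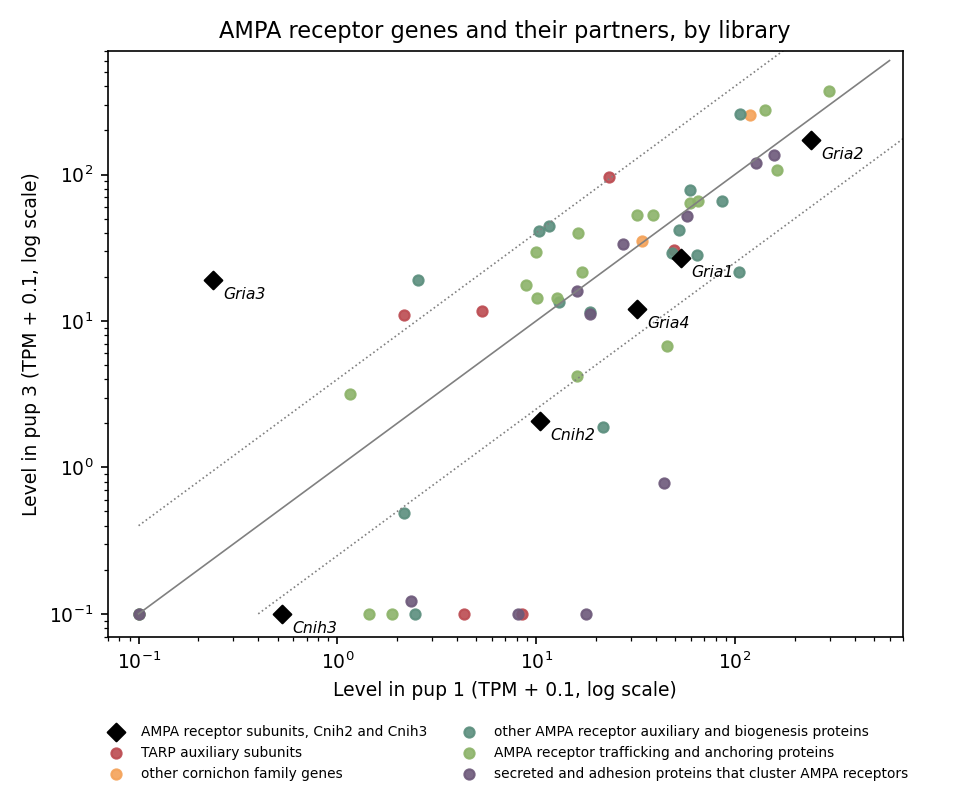
Level in pup 1 (x axis) against pup 3 (y axis) in TPM plus 0.1 on log scales for the 6 members (black diamonds) and 5 lists of partner genes (circles, by colour); the solid line is equality and the dotted lines are 4-fold. Gria3 lies above the upper 4-fold line, Cnih2 below the lower one, and a row of partner genes along the bottom, 3 of them for secreted and adhesion proteins, is at or near 0 in pup 3.

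The 3 genes of the ADAR family, RNA-editing enzymes and their relatives, were detected in both libraries. Adarb1 encodes ADAR2, which edits the Q/R site of Gria2, and had 28 expected counts in pup 1 and 893 in pup 3, or 2.08 TPM in pup 1 and 18.9 in pup 3. Adar had 28.0 TPM in pup 1 and 32.9 in pup 3, and Adarb2, whose product has no known editing activity, had 3.33 TPM in pup 1 and 22.8 in pup 3. The tables hold no base calls, so editing itself was not analysed here.

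Among the other ionotropic glutamate receptors, Gria2 lay above each subunit named here in both libraries by whole-gene TPM. The kainate subunit Grik1 had 52.4 TPM in pup 1 and 43.9 in pup 3. Grik2 had 10 expected counts in pup 1 and 3050 in pup 3, or 0.203 TPM in pup 1 and 74.5 in pup 3. Grid1 had 2.33 TPM in pup 1 and 20.5 in pup 3, and Grik3 had 2.88 TPM in pup 1 and 8.61 in pup 3. Of the 7 NMDA subunits, Grin1 (24.1 TPM in pup 1 and 17.0 in pup 3), Grin2b (9.68 TPM in pup 1 and 67.3 in pup 3) and Grin2d (0.384 TPM in pup 1 and 5.22 in pup 3) were detected in both. Grin3a had 0 expected counts in pup 1 and 2958 in pup 3, Grin2a had 11 in pup 1 and 0 in pup 3, and Grin2c and Grin3b had 0 in both. The summed NMDA subunit level was 34.3 TPM in pup 1 and 120 in pup 3. The AMPA receptor sum was 328 TPM in pup 1 and 229 in pup 3, the opposite order. The higher NMDA sum of pup 3 lay mostly in Grin2b and in Grin3a, at 0 TPM in pup 1 and 30.1 in pup 3. Grin1 was higher in pup 1, so the order is not one of the whole list. Gria3, Grik2 and Grin3a had 14, 10 and 0 expected counts in pup 1, against 1364, 3050 and 2958 in pup 3. Other subunits went the other way. By the 4-fold rule 2 of 7 kainate and delta subunits were higher in pup 1 and 2 in pup 3. Of 4 NMDA subunits with enough counts, 0 were higher in pup 1 and 3 in pup 3. The background was 27.7% for pup 1 and 18.3% for pup 3, and these lists are small.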

How the data were processed

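Both libraries come from P0 mouse hindbrain, 1 per pup. The authors deposited a gene and a transcript table per library, on mm10 with annotation M4 per the deposited notes. Per the file headers each holds an expected count, an estimate that divides a read between the transcripts it matches, with its posterior SD. The deposited TPM is scaled over everything listed, spike-ins included, and the deposited FPKM by length and assigned reads. The deposited isoform share is the percent of a gene's TPM in each transcript. The aligner, the versions and the strand setting are not given in the sources read here.

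TPM was rescaled over 43309 nuclear genes. The deposited credibility intervals were left as they were. Names, structures and cassettes came from GENCODE M21 on GRCm38, matched for 42462 (98.0%) of 43346 gene identifiers. A transcript was called flip or flop from its translated cassette. Of the 25 Gria transcripts 24 had the length of the M21 transcript, Gria4-202 being the exception, and the length of Cnih2-201 also differed. A 4-fold difference was counted on the plain TPM ratio of pup 1 over pup 3, with a library at 0 set to 3 counts. Log2 ratios used a pseudocount of 1 TPM, which understates differences of low genes. Intervals are exact at 95% (Poisson for levels, Clopper-Pearson for ratios). The fold count was tested on simulated counts. These held Poisson error only, so the test does not cover loss or amplification of transcripts at low input. Python 3.11.15 and scipy 1.17.1 were used, and, for scaling factors on expected counts rounded to whole numbers, edgeR 4.0.16 and DESeq2 1.42.0 in R 4.3.3.

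The members, lists and rules were chosen with earlier results of these data known. The rule named all members and transcripts, the 4 most abundant genes of each partner list and every partner gene not detected in both libraries. A gene that the rule names is not reported here. Gsg1l, Neto1, Neto2, Shisa9, Grip1 and Nptxr were named after their values were seen. Alternatives were other detection limits, thinning of the library of pup 1, each library alone, other units, scalings, folds, minimum counts and pseudocounts, and transcript filters. Posterior mean TPM, Gria1 and Gria4 alone, protein-coding transcripts alone, and a pseudocount before the fold were chosen after seeing the data.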

Additional observations from a re-analysis of the deposited data

How the results depend on the processing

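The count of members detected in both pups stayed at 5 at 1 or 10 expected counts and after thinning, and was 4 at 1 TPM, where Gria3 in pup 1 fell short. From expected counts without length, the Gria2 share averaged 72.3% in place of 74.2%. Over protein-coding transcripts alone it averaged 59.1%. The flip share averaged 49.4% from transcript expected counts in place of 61.6% from TPM, a unit in which the long tail of the flop form of Gria2 weighs more. Over Gria1 and Gria4 alone it was 46.7% in pup 1 and 59.4% in pup 3, the opposite order to the 70.1% and 53.1% over all genes. The count of members 4-fold apart was 1 with a fold of 8 and 1 with a pseudocount of 1 TPM, Gria3 both times, in place of 2. It was 3 with a fold of 2 and 3 at a minimum of 10 expected counts, and 2 under the other scalings and minimum. Each member's log2 ratio kept its sign under all 7 alternatives. A change of pseudocount cannot turn a sign, and no rescaling can turn that of Cnih3, with 0 counts in pup 3. The kept signs are therefore a weak test of direction. The log2 ratios ran from 0.43 to 0.60 for Gria2, 0.88 to 1.23 for Gria1 and 1.12 to 1.84 for Gria4. They ran from 1.14 to 2.34 for Cnih2, 0.12 to 2.40 for Cnih3 and -6.34 to -2.22 for Gria3. With edgeR factors the median protein-coding gene detected in both pups had a log2 ratio of -0.02 in place of -0.14. Each library alone gave the per-pup values of the report. No paired analysis was possible because the series has 1 group. Few counts stand behind Cnih3, at 23 and 0, and behind the forms of Gria3 in pup 1, at 14.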
